A study of Homo sapiens with 12 samples.

Results

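Epiregulin (EREG) and 8 of its relatives in the epidermal growth factor (EGF) family were followed in KP4 cells, a human pancreatic cancer line, after treatment with metformin and FK866. The 9 genes, of 36601 in the deposited table, were taken by name, with earlier results of these data known. They are the ligand genes EREG, AREG, HBEGF, TGFA, BTC and NRG1 and the receptor genes EGFR, ERBB2 and ERBB3. The group was chosen by the measured interaction of EREG, the difference between its responses to FK866 with and without metformin, in these same data, so the values of EREG are given as a description, without a test. The cells, labelled wild type, received for 24 h DMSO as the vehicle, 10 mM metformin (Met), 5 nM FK866 (FK) or both drugs (Met+FK), with 3 libraries per treatment numbered as replicates 1 to 3. Metformin acts on complex I of the respiratory chain in mitochondria, and FK866 inhibits NAMPT, an enzyme of NAD salvage. Nothing in the labels says whether the replicates were separate cultures, so p-values measure only the spread between these libraries. All libraries come from 1 cell line in culture.

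EGF family ligands are made as membrane proteins, and proteases of the ADAM family cut them free. They bind receptors of the ERBB family, which pair with each other and signal through RAS and the MAPK cascade. Epiregulin, amphiregulin (AREG), heparin-binding EGF-like growth factor (HBEGF), transforming growth factor alpha (TGFA) and betacellulin (BTC) bind EGFR, and HBEGF, BTC and EREG can also bind ERBB4. Neuregulin 1 (NRG1) binds ERBB3 and ERBB4. ERBB2 has no known ligand of its own and acts as a partner, while ERBB3 has a kinase domain of little activity.

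The libraries held between 30667735 and 41052203 counted read pairs, with between 3.22% and 4.51% of them from mitochondrial genes. The normalized counts used here are read pairs per gene divided by a size factor of each library. Log2 fold changes are differences of mean log2(normalized count + 1) and make the changes of weakly expressed genes look smaller. Of 9 genes that mark ductal epithelium, KRT18, SOX9 and KRT8 had mean counts of 13170, 4320 and 2728. KRT19 (33.7), CDH1 (47.5) and EPCAM (8.93) were low. Of 11 markers of other cells, the acinar, endocrine and decorin genes CPA1, INS and DCN were at 0 and PRSS1, CELA3A, GCG and COL1A2 had means under 1, whereas CD68 (829), PTPRC (196), COL1A1 (139) and PECAM1 (7.10) had reads. Of the 3 such genes tested, COL1A1 moved with either drug, by 0.91 on the log2 scale with FK866 alone (adjusted p = 0.0153) and by −1.15 with metformin alone (adjusted p = 0.000181). The first of these calls was lost without FK replicate 2 and without DMSO replicate 1. With both drugs COL1A1 and PTPRC were called lower, PTPRC by −0.86 against DMSO (adjusted p = 0.00242) and by −0.86 against FK (adjusted p = 0.00321). Of the 7 ductal genes tested, metformin alone came with higher CDH1 (1.07) and lower KRT19 (−1.26) and KRT18 (−0.82), the 3 called. Of all genes tested, 3.49% were called with FK866 alone and 23.0% with metformin alone. The shares with both drugs were 25.1% against DMSO and 18.6% against FK. The rule for a call is given below. The part of such markers in the results that follow was not tested.

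EREG and AREG lie in the same region of chromosome 4, on the same strand. EREG runs from 74365145 to 74388749 and AREG from 74445136 to 74455005 (hg38), so their starts are 80.0 kb apart. BTC, on the opposite strand, ends in the same region (74744759 to 74794523). The windows from 250 bases before to 50 bases after the starts of EREG (chr4:74364895-74365194, plus strand) and AREG (chr4:74444886-74445185, plus strand) are given here in RefSeq's GRCh38.p14 sequence, because these genes differed in their values across the treatments. Capitals mark the TATA box (TATAAA), the CCAAT box (CCAAT), and the cAMP response element (TGACGTCA) or its half-site (TGACG).
EREG: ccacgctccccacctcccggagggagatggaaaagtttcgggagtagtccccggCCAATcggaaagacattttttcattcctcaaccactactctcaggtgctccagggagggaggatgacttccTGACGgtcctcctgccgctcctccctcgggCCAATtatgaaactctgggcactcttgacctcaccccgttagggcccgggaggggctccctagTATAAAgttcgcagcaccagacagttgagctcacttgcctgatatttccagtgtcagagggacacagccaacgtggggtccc
AREG: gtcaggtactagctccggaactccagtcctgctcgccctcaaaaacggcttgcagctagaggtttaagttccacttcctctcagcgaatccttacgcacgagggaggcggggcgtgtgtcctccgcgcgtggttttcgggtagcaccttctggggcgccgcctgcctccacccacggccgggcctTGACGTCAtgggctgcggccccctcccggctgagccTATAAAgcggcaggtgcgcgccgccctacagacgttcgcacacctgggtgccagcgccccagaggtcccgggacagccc
Both windows hold TATAAA, 32 bases before the start in EREG and 29 bases before it in AREG. This motif is in 11.5% of the 35116 RefSeq windows of 300 bases, counting both strands. The AREG window holds the full element TGACGTCA at 65 bases before the start, which 1.85% of windows hold. In the EREG window TGACG alone was found, at 125 bases before the start, and 24.6% of windows hold it. The full element contains TGACG on each strand, so the AREG matches overlap. EREG also holds CCAAT at 196 and at 95 bases before the start, a motif of 34.6% of windows, and AREG holds none. Neither window holds the AP-1 motif TGANTCA (7.71% of windows), the E-box CACGTG (7.26%) or TGATGNAA, an element bound by ATF4 (3.62%). These matches are a description of letters in a window. Of the 9 genes, 7 have such a window in the table used, all but NRG1 and ERBB3.

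EREG had normalized counts of 3136, 3071 and 2991 in DMSO replicates 1, 2 and 3. With FK866 alone they were 9133, 13002 and 8508. With metformin alone they were 2914, 3045 and 2532, and with both drugs 3766, 3490 and 3151. Every FK library lay above all 9 others, and replicate 2 was the highest of them. The Met and DMSO libraries overlapped, while the lowest Met+FK library stood just above the highest DMSO library. The means were 3066 ± 72.3 in DMSO, 10214 ± 2434 in FK, 2831 ± 266 in Met and 3469 ± 308 in Met+FK (SD, n = 3 each). The log2 fold change of EREG was 1.71 with FK866 alone (standard error 0.13) and 0.29 when FK866 was added to metformin (standard error 0.13). The interaction term, the second value minus the first, was −1.42 (standard error 0.18). It is the value by which EREG was chosen. With both drugs against DMSO the log2 fold change was 0.17 (standard error 0.13). Leaving out each library in turn gave interaction terms from −1.54 to −1.23 and effects of FK866 alone from 1.52 to 1.83. Without FK replicate 2 the effect of FK866 alone was 1.52.

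The libraries differed in their trend on GC content. The EREG transcript has 36.1% GC, the lowest of the 9, against a median of 48.5% over the genes tested. The slope of log2 expression on GC content, per 10% of GC, lay between −0.484 and −0.236 in the FK libraries and between −0.196 and −0.0427 in the DMSO libraries. It lay between −0.378 and −0.159 in the Met libraries and between −0.287 and −0.176 in the Met+FK libraries. FK replicate 2, with the highest EREG, had the steepest slope. Met replicate 2 (−0.378) was steeper than FK replicates 1 and 3 (−0.236 and −0.264), with EREG at 3045, within the range of DMSO. After each library was corrected for its trend on GC content and length, the log2 fold change of EREG with FK866 alone was 1.31 and the interaction term −0.95 (standard error 0.13). The effect of metformin alone went from −0.12 to −0.43, and the value with both drugs against DMSO turned from 0.17 to −0.065. EREG in FK was thus higher than in DMSO with and without the correction, by less with it. The part of the GC trend in the values of EREG was not tested.

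**Figure D1:**
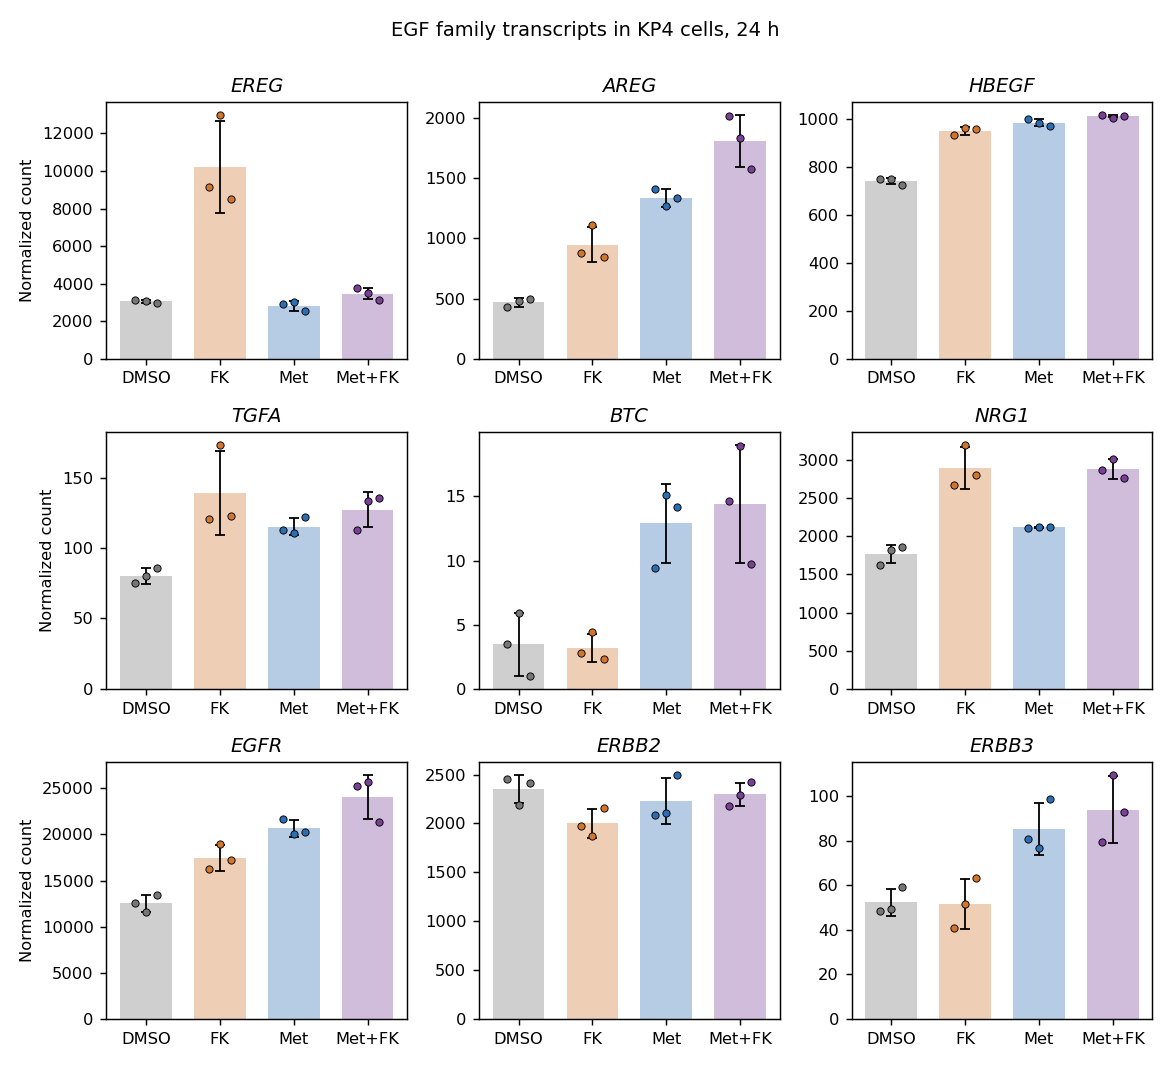
Normalized counts (y axis, linear, from 0) of the 9 genes in the 4 treatments. Bars are means, error bars are SDs, and points are the 3 libraries of a treatment in the order of their replicate numbers. EREG is high in the 3 FK libraries alone (8508 to 13002), AREG is highest in Met+FK (1580 to 2014), and ERBB2 stays between 1869 and 2500.

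AREG, a ligand gene of the same region, was higher with either drug and highest with both. Its counts were 430, 481 and 499 in DMSO and 880, 1113 and 847 in FK. They were 1415, 1267 and 1333 in Met and 2014, 1838 and 1580 in Met+FK. No pair of treatments overlapped. On the log2 scale AREG rose by 1.0 with FK866 alone (adjusted p = 0.000255, standard error 0.11) and by 1.51 with metformin alone (adjusted p = 1.44e-07, standard error 0.11). With both drugs it rose by 1.94 over DMSO (adjusted p = 8.73e-09) and by 0.94 over FK866 alone (adjusted p = 1.3e-05). When FK866 was added to metformin the difference was 0.43 (standard error 0.11, adjusted p = 0.303). With the GC and length trend removed it was 0.45 (adjusted p = 0.0428), still under a fold of 1.5. The adjusted p was 0.032 with the replicate number as a block besides. EREG was thus lower with both drugs than with FK866 alone, by 1.54 on the log2 scale, where AREG was higher. The AREG transcript has 45.3% GC, and with the trend on GC and length removed the effect of FK866 alone on it was 1.0.

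The adjusted p-values of these 8 relatives come from limma-trend over the 15376 genes whose mean normalized count reached 10, with Benjamini-Hochberg adjustment. A gene was called at an adjusted p-value under 0.05 with a fold change over 1.5. BTC, with a mean of 8.5, was under the filter, so 7 relatives were tested. With FK866 alone 3 of the 7 were called, all higher (AREG, TGFA and NRG1), against 3.49% of all genes tested, or 2.73% for higher alone. With a library left out the count was 2 or 3. NRG1 was not called with the GC and length trend removed, and the call of TGFA was lost in fits named below. The adjusted p-value alone was passed by 5 of the 7, against 21.1%. The median log2 fold change of the 7 was 0.48, and that of all genes −0.016.

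HBEGF, which is also the receptor of diphtheria toxin, moved less and more evenly. Its counts were 749, 748 and 724 in DMSO, 930, 961 and 955 in FK, 999, 980 and 971 in Met, and 1016, 1004 and 1012 in Met+FK. All 9 treated libraries lay above the 3 DMSO libraries. The log2 fold changes against DMSO were 0.36 with FK866 (adjusted p = 0.0124), 0.41 with metformin (adjusted p = 0.000248) and 0.45 with both (adjusted p = 9.76e-05). Each passed the adjusted p-value and none reached the fold of 1.5. Without DMSO replicate 1 the adjusted p with FK866 was 0.0538.

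TGFA, a ligand of EGFR alone, had few reads. Its counts were 75.0, 79.8 and 85.9 in DMSO and 121, 173 and 123 in FK. They were 113, 111 and 122 in Met and 113, 133 and 136 in Met+FK. The DMSO libraries lay below all others, and FK replicate 2 stood highest. TGFA rose with FK866 alone by 0.77 (standard error 0.15, adjusted p = 0.0125) and with both drugs by 0.66 (adjusted p = 0.00211). With metformin alone the value was 0.52 (adjusted p = 0.0106), under the fold. The call with FK866 alone was lost without FK replicate 2 (0.60, adjusted p = 0.0569), without DMSO replicate 1 (0.72, adjusted p = 0.0683) and in a fit of the 6 libraries alone (0.77, adjusted p = 0.0562).

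NRG1, on chromosome 8, had counts of 1628, 1815 and 1856 in DMSO and 2675, 3201 and 2796 in FK. They were 2113, 2127 and 2121 in Met and 2870, 3014 and 2762 in Met+FK. The libraries with FK866, alone or combined, were above all libraries without it. NRG1 rose with FK866 alone by 0.71 (standard error 0.08, adjusted p = 0.000255) and with both drugs by 0.71 over DMSO (adjusted p = 5.49e-06). When FK866 was added to metformin the difference was 0.44 (adjusted p = 0.0547). That adjusted p passed in DESeq2 (0.000833), in a fit of the 6 libraries alone (0.0171), with the GC and length trend removed (0.0129), with the replicate number as a block (0.00363) and without FK replicate 1 or 2 (0.0456 and 0.0112). Its fold stayed under 1.5 in each of these. The NRG1 transcript has 41.3% GC, and with the trend on GC and length removed the effect of FK866 alone was 0.36 and that of both drugs 0.42, each under the fold. The effect of metformin alone was 0.27 (adjusted p = 0.0135), and −0.065 with the trend removed. Without DMSO replicate 1 it was 0.21 (adjusted p = 0.0716).

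BTC was at the edge of detection, with 1 to 6 read pairs in each DMSO and FK library. Its normalized counts were 3.46, 5.91 and 1.02 in DMSO and 2.83, 4.42 and 2.30 in FK. They were 9.41, 15.1 and 14.2 in Met and 14.6, 18.9 and 9.76 in Met+FK. All 6 libraries with metformin lay above all 6 without it, and no test was made in the fit used here.

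The receptors differed among themselves. EGFR, the receptor of most of these ligands, had counts of 12547, 11616 and 13384 in DMSO and 16202, 18943 and 17200 in FK. They were 21664, 20020 and 20276 in Met and 25205, 25709 and 21307 in Met+FK. The DMSO libraries were the lowest and the FK libraries came next, while Met and Met+FK overlapped. EGFR rose with metformin alone by 0.72 (standard error 0.08, adjusted p = 8.38e-06) and with both drugs by 0.94 (adjusted p = 4.84e-07). Its value with FK866 alone was 0.48 (adjusted p = 0.0073), under the fold, and 0.31 with the GC and length trend removed. That correction also took the metformin value to 0.53, under the fold, at an adjusted p of 1.34e-05.

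ERBB3 had few reads. Its counts were 48.5, 49.3 and 59.3 in DMSO, 40.6, 51.3 and 63.1 in FK, 80.5, 76.5 and 98.4 in Met, and 79.4, 110 and 92.7 in Met+FK. All 6 libraries with metformin lay above all 6 without it. ERBB3 rose by 0.69 with metformin alone (standard error 0.19, adjusted p = 0.00701) and by 0.86 when metformin was added to FK866 (adjusted p = 0.00199). Without Met replicate 3 the first value was 0.58 (adjusted p = 0.0307), just under the fold. With FK866 alone its log2 fold change was −0.03 (adjusted p = 0.902).

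ERBB2 had counts of 2451, 2187 and 2413 in DMSO, 1973, 1869 and 2163 in FK, 2087, 2108 and 2500 in Met, and 2182, 2291 and 2421 in Met+FK. The FK libraries lay below the DMSO libraries. The Met libraries overlapped both, and the Met+FK libraries overlapped those of DMSO. Its log2 fold change with FK866 alone was −0.23 (standard error 0.09, adjusted p = 0.0685). The adjusted p was 0.00977 with the replicate number as a block, at the same value, and 0.0459 and 0.0454 without DMSO replicate 2 and Met replicate 3. With the GC and length trend removed the value was −0.03 at a GC content of 60.4%, the highest of the 9. ERBB2 overlaps PGAP3 and MIEN1 (means of 288 and 1156), and EGFR overlaps EGFR-AS1 (4.60). The strand setting of the counting is not stated, so reads of such overlaps cannot be told apart. EREG, AREG, HBEGF, BTC and ERBB3 overlap no other gene of the table.

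**Figure D2:**
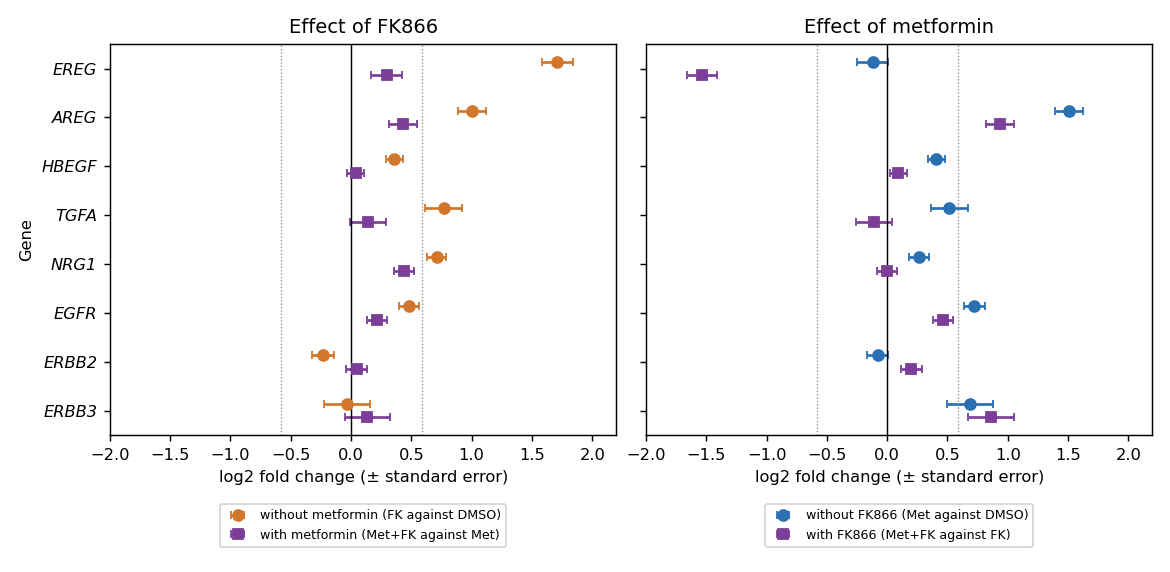
Log2 fold changes (x axis, points with standard errors) of EREG and the 7 relatives tested. The left panel shows FK866 without and with metformin, the right panel metformin without and with FK866, and dotted lines mark a fold of 1.5. EREG has the widest gap between the paired points in both panels (1.71 and 0.29 on the left, −0.12 and −1.54 on the right).

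With metformin alone 3 of the 7 relatives tested were called, all higher (AREG, EGFR and ERBB3). The share of all genes called in this comparison was 23.0%, or 12.8% for higher alone. With both drugs against DMSO 5 of 7 were called higher (AREG, EGFR, ERBB3, NRG1 and TGFA), against 25.1% of all genes, or 13.7% for higher alone. With the trend on GC and length removed, AREG, EGFR and ERBB3 were the 3 still called in that comparison, against 23.6% of genes. The 3 comparisons with DMSO share its libraries. When metformin was added to FK866, AREG and ERBB3 were the 2 relatives called, both higher, against 18.6% of genes, or 9.27% for higher alone. When FK866 was added to metformin, limma-trend called 0 of the 7, against 0.0585% of genes. An unadjusted p under 0.05 was found for 3 of the 7, and for 1051 of the 15376 genes tested. In that comparison edgeR and DESeq2 also called 0.

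The question of whether FK866 acts differently in the presence of metformin was put to the 7 relatives through the interaction. The term was −0.63 for TGFA, −0.57 for AREG, −0.32 for HBEGF, −0.27 for NRG1 and −0.26 for EGFR. It was 0.17 for ERBB3 and 0.28 for ERBB2. None of the 7 had an adjusted p under 0.05 in limma-trend, with a lowest value of 0.11, and 0.0585% of all genes passed. An unadjusted p under 0.05 was found for 6 of the 7, and for 4695 of the 15376 genes tested. DESeq2 on the recovered read pairs passed AREG and HBEGF, against 6.20%, and edgeR passed 0. With the GC and length trend removed and no block, HBEGF passed, against 0.281%. The term of NRG1 turned to 0.12 with the trend on GC and length removed.

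To compare levels between genes, normalized counts were divided by the length of each gene's exons. In DMSO the order per kb of exons was EGFR (785 ± 55.5), EREG (537 ± 12.7), AREG (286 ± 21.7), HBEGF (248 ± 4.66), ERBB2 (228 ± 13.8), NRG1 (82.7 ± 5.67), TGFA (16.3 ± 1.11), ERBB3 (4.47 ± 0.517) and BTC (1.31 ± 0.921), each SD over 3 libraries. No neighbours in this order overlapped in their libraries. The place of ERBB2 depended on the length used, since with the canonical transcript it stood above AREG and HBEGF. With FK866 alone EREG came first, at 1788 ± 426 per kb, above EGFR at 1095 ± 87.0. With metformin AREG (815 ± 45.2) stood above EREG (496 ± 46.7), and with both drugs it was at 1103 ± 133 against 607 ± 53.9 for EREG.

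Summed over the 6 ligand genes, the level per kb was 1171 ± 15.1 in DMSO, 2846 ± 536 in FK, 1767 ± 61.4 in Met and 2214 ± 190 in Met+FK (SD, n = 3). EREG made up 45.8% of this sum in DMSO and 62.4% in FK, and 28.0% and 27.4% in Met and Met+FK. The share of AREG was 24.4% in DMSO, 20.3% in FK, 46.1% in Met and 49.7% in Met+FK. EREG was thus the leading ligand transcript without metformin and AREG with it, in all 12 libraries. HBEGF took between 9.28% and 21.7%, and TGFA and BTC together stayed a small share. In bulk RNA, a change in how many cells make a transcript and a change per cell cannot be told apart.

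**Figure D3:**
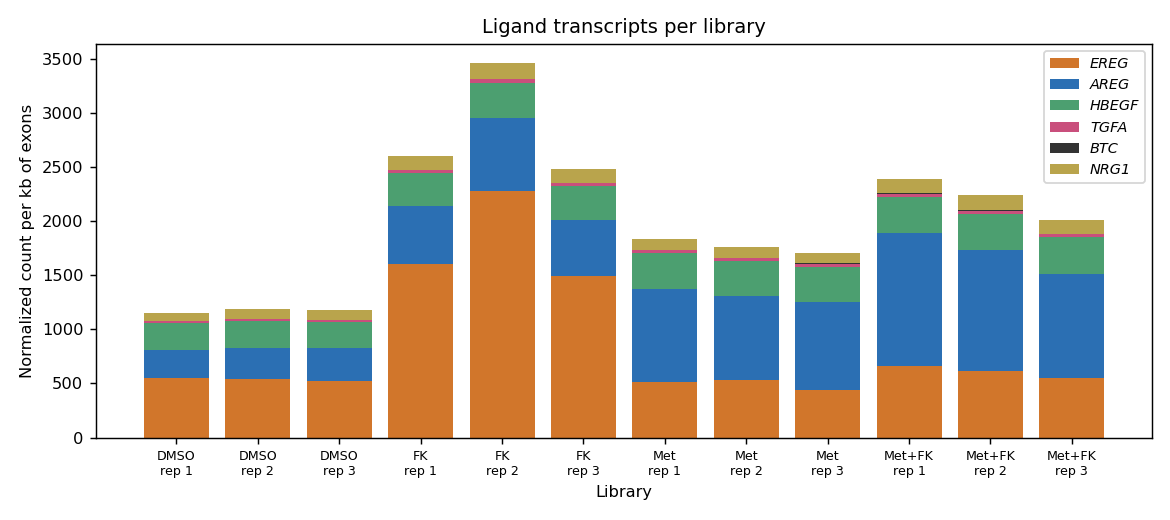
Normalized counts per kb of exons (y axis, linear, from 0) of the 6 ligand genes, stacked for each of the 12 libraries. The EREG part is tallest in the FK libraries, and in the Met and Met+FK libraries the AREG part exceeds the EREG part.

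The region around EREG was searched for genes within 500000 bases. It holds 16 other genes, of which 8 were tested. With FK866 alone AREG was the 1 called, against 3.49% of all genes tested. CXCL1 and CXCL5, which encode chemokines that attract neutrophils, had log2 fold changes of 0.40 and 0.39 (adjusted p = 0.0311 and 0.0478), under the fold. EPGN, the gene of the EGFR ligand epigen, has its start at −56.7 kb from that of EREG. Its counts were 6.51 ± 2.64 in DMSO and 18.1 ± 10.8 in FK (SD, n = 3), and their log2 difference was 1.27 ± 0.50 (standard error, adjusted p = 0.0734). With metformin alone AREG, CXCL2 (0.91, adjusted p = 6.62e-05) and CXCL3 (0.89, adjusted p = 5.15e-05) rose. These were the 3 called of the 8, against 23.0% of all genes, or 12.8% for higher alone. With both drugs against DMSO 3 were called higher and 1 lower, against 25.1% of all genes. The lower one was AC093677.2 (−0.99, adjusted p = 0.00837), with a mean of 13.35 counts. MTHFD2L, which encodes a mitochondrial folate enzyme, was not called with either drug.

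**Figure D4:**
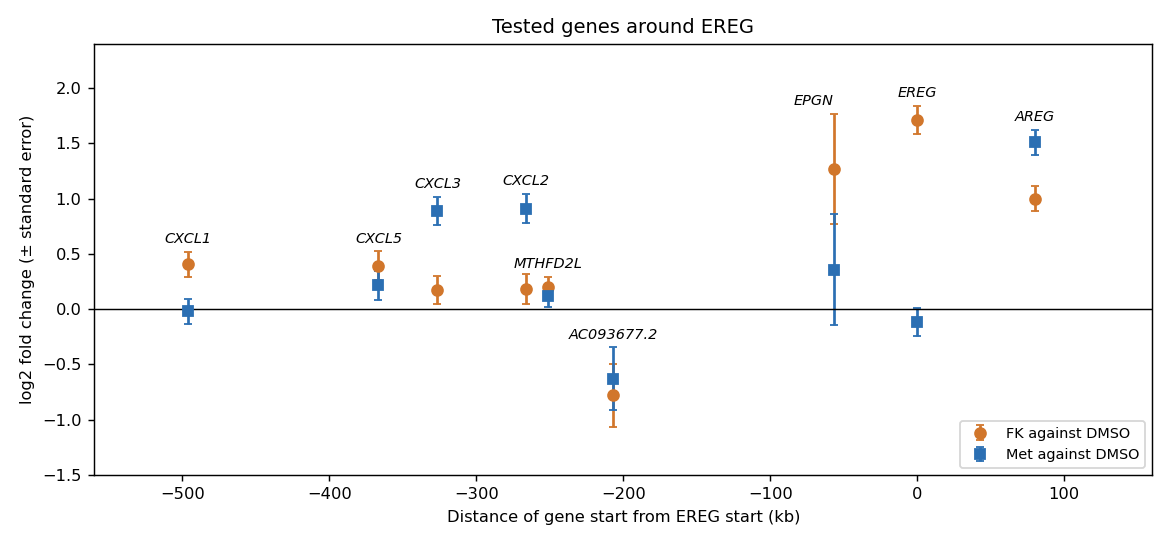
Log2 fold changes with standard errors (y axis) of EREG and the 8 tested genes around it, by the distance of their starts from the start of EREG (x axis, kb). Circles are FK against DMSO and squares Met against DMSO, and EREG has a high circle (1.71) with a square near 0 (−0.12) while both points of AREG are high (1.0 and 1.51).

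Genes with a pattern most like that of EREG were ranked by Pearson's r of log2 values over the 12 libraries, among the 11520 genes whose mean reached 100. The libraries share treatments, depth and GC trends, so r is a description. The first 10 were PTCHD1 (0.987), ABCG2 (0.973), NPTX1 (0.966), UNC13C (0.962), LUCAT1 (0.948), ALDH1A3 (0.946), IL11 (0.940), AMMECR1 (0.937), MIS12 (0.936) and VAPA (0.935). ABCG2 encodes a drug efflux pump and had 1604 ± 107 counts in DMSO, 2851 ± 399 in FK, 1560 ± 49.0 in Met and 1739 ± 210 in Met+FK (SD, n = 3). IL11, a cytokine gene, had 111 ± 9.31, 254 ± 24.3, 90.6 ± 4.14 and 121 ± 18.6 in the same order. ALDH1A3, a retinaldehyde dehydrogenase gene, had 1329 ± 86.4, 2166 ± 242, 1138 ± 33.0 and 1183 ± 59.7. Of the 8 relatives, 6 reached that mean (ERBB3 and BTC did not), and none of the 6 was near the top, with NRG1 at rank 1466, TGFA at 1906, HBEGF at 4566, EGFR at 6350, AREG at 6351 and ERBB2 at 11006.

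Other genes of the pathway were taken from lists written from general knowledge, but chosen with earlier results of these data known. Their counts are thus a description. The shares of all genes called, beside which their counts stand, were 3.49% with FK866 alone, 23.0% with metformin alone and 25.1% with both drugs. Of the 6 remaining family genes, 3 were tested (EGF, EPGN and NRG2), while NRG3, NRG4 and ERBB4 had means of 1.06, 2.84 and 6.28. NRG2, a neuregulin gene, had a mean of 581 in DMSO and of 354, 347 and 329 in FK, Met and Met+FK. It fell by 0.71 with FK866 alone (adjusted p = 0.0136) and by 0.77 with metformin alone (adjusted p = 0.000538). The FK866 call was lost with the GC and length trend removed and without DMSO replicate 1. EGF, the founding ligand, had means between 15.5 and 25.6 and fell by 0.68 with both drugs against DMSO (adjusted p = 0.0445). With the block, EPGN and NRG2 were the 2 called with FK866 alone.

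Of 13 genes for ligand shedding, 11 were tested. With FK866 alone limma-trend called 0 of these, as did edgeR, and 4 passed the adjusted p-value, against 21.1% of all genes. With metformin alone ADAM17, the main sheddase of AREG and TGFA, rose by 1.10 (adjusted p = 5.96e-07), from a mean of 2146 in DMSO to 4603. ADAM12 and FRMD8, the latter a partner of the iRhom proteins that carry ADAM17, fell by 1.33 and 0.69. With the GC and length trend removed FRMD8 was not called and MMP14, a membrane metalloprotease gene, was called higher. In the fit without that correction the other 8 were not called, and the median of the 11 was 0.17. ADAM17 had means of 2769 in FK and 5172 in Met+FK. With both drugs against DMSO MMP14 was called as well, which made 4 of 11 against 25.1% of all genes. With the trend removed it was 3 of 11, without FRMD8, against 23.6%.

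Among 14 genes that restrain the receptors, 13 were tested. With FK866 alone limma-trend called 0, as did edgeR, and 3 passed the adjusted p-value, against 21.1% of all genes. With metformin alone CBLB, a ubiquitin ligase gene, rose by 0.85 (adjusted p = 5.85e-05) and ERRFI1, which encodes an inhibitor of the EGFR kinase, by 0.72 (adjusted p = 2.29e-06). ERRFI1 had means of 13040 in DMSO, 14000 in FK, 21430 in Met and 26280 in Met+FK. With both drugs CBL, a ligase gene related to CBLB, was called as well, so 3 of 13 were called higher and 0 lower, against 13.7% of all genes called higher. With the GC and length trend removed it was 2 of 13, without CBL. Without that correction, 7 of the 13 passed the adjusted p-value alone as higher and 3 as lower. The share of all genes was 26.1% in each direction.

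Of the 18 genes for adaptors and the RAS and MAPK core, all were tested. With FK866 alone SOS1, a RAS exchange factor gene, rose by 0.71 (adjusted p = 0.0136), and this call was lost with the GC and length trend removed, without FK replicate 2 and without DMSO replicate 1. With metformin alone GAB2, a docking protein gene, rose by 1.35 (adjusted p = 1.84e-06), SOS2 by 0.95 and SOS1 by 0.69, and 0 were called lower. The adjusted p-value alone was passed by 5 as higher and 8 as lower, against 24.9% and 25.9% of all genes. SOS1 was not called with the trend removed. The median of the 18 was −0.11 with metformin alone, and that of all genes 0.012.

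Of 18 genes driven by MAPK signalling, SPRED1, a RAS inhibitor gene, was the 1 called with FK866 alone, where it rose by 0.62 (adjusted p = 0.0124). The count was 0 without FK replicate 2 or DMSO replicate 1, and with the GC and length trend removed DUSP4 was called in its place. With metformin alone the phosphatase genes DUSP5 and DUSP6 rose by 0.99 and 0.88, while FOS and CCND1, the gene of cyclin D1, fell by 1.37 and 0.73. When FK866 was added to metformin, IER3, an immediate early gene, rose by 0.65 (adjusted p = 0.028), from a mean of 445 to 698. Among these 4 pathway lists, 2 genes were called with FK866 alone in 60 tested, SOS1 and SPRED1, near the 3.49% of all genes.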

How the data were processed

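RNA of 12 libraries, 3 per treatment, was depleted of ribosomal RNA and sequenced as read pairs. Per the methods, cutadapt trimming, STAR alignment to hg38, featureCounts counting of pairs and DESeq2 normalization were the steps of the authors. They deposited a signal, gene counts over a size factor per library. The annotation and strand setting are not given in the sources used here. Whole reads were recovered for 100% of values within 0.01 reads. The chi-square between replicates, per degree of freedom, ran from 5.75 to 51.9, above sampling noise, so all were counted as separate libraries. It cannot show whether they came from separate cultures, since the libraries of a treatment also differed in their GC trend.

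Tests were limma-trend (limma 3.58.1, R 4.3.3) on log2(normalized count + 1), fitted to the 12 libraries together for the 15376 genes whose mean reached 10, with Benjamini-Hochberg adjustment. Calls needed both a fold over 1.5 and an adjusted p under 0.05, except the interaction, which had no fold threshold. The test was checked on simulated data. Alternatives were pseudocounts of 0.1 and 10, both filters, scaling to the same total, TMM, edgeR (4.0.16), DESeq2 (1.42.0), the replicate block, the adjusted p alone, a loess trend (span 0.3) on GC content and length removed, and each library left out. GC content and lengths came from GENCODE 44 and were known for 99.7% of tested genes. Same-numbered libraries deviated together, above 0.1 for each number, in DMSO with FK (correlations 0.25, 0.42 and 0.22) and in Met with Met+FK (0.17, 0.20, 0.23), but not in the other 4 pairs of treatments. So the numbers were read as pairing, from the values alone as deposited, in those 2 comparisons only. With the GC and length trend removed, DMSO with FK stayed above 0.1 for each number (0.14, 0.17 and 0.13). Met with Met+FK did not (0.16, 0.096 and 0.074), while FK with Met did (0.12, 0.14 and 0.12). The pairing read for Met with Met+FK thus held without that correction only. The main fit left out the pairing read for DMSO with FK and for Met with Met+FK. The block was fitted over all 4 treatments, so no adjusted p-value given comes from a fit paired in those 2 comparisons alone. The members and lists were chosen with earlier results of these data known. Named are the 9 members, the genes of the lists, tested genes within 500000 bases of EREG, and the 10 genes most like EREG.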

Additional observations from a re-analysis of the deposited data

Results flagged for a closer look

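The interaction of both drugs on EREG was −1.42 on the log2 scale, with mean counts of 3066 in DMSO and 10214 in FK against 2831 in Met and 3469 in Met+FK. This is the value by which EREG was chosen, so the difference between both effects was not tested here.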

How the results depend on the processing

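Counts of members called moved with the call rule and the fit. With the adjusted p alone they were 5 with FK866, against 21.1% of all genes, and 6 with metformin, against 50.9%. With the GC and length trend removed, NRG1 lost its call with FK866 alone and EGFR its call with metformin alone. With both drugs against DMSO the count was 3 with that trend removed, with or without the replicate block. For the interaction it was 5 with the replicate block (TGFA, AREG, HBEGF, NRG1 and ERBB2), where 32.0% of all genes passed, 2 with DESeq2, 1 with the GC and length trend removed, 2 with that and the block (AREG and HBEGF, against 3.16%), and from 0 to 1 with each library left out (AREG without FK replicate 1). Over all 4 treatments 13 of 18 same-numbered correlations were above 0.1, the lowest was 0.013, and different numbers reached 0.26, so the numbers were not taken to pair the interaction. EREG moved by more than the spread between replicates with the trend removed, to 1.31 with FK866, −0.43 with metformin, −0.065 with both and −0.95 for the interaction, with or without the block. With the same total its metformin value was 0.0027. Leaving out a library gave 1.52 to 1.83 with FK866, −0.17 to −0.041 with metformin and 0.11 to 0.24 with both. Values of the relatives that turned sign were as follows. With the trend removed, with or without the block, they were NRG1 −0.065 (metformin), 0.057 (both against FK) and 0.12 (interaction), ERBB3 0.017 (FK866), and ERBB2 0.090 (metformin), 0.088 (both against DMSO) and −0.0016 (both against Met). With the same total, NRG1 in both against FK was 0.059, and ERBB2 was 0.044 with metformin and 0.051 with both. With TMM and edgeR that NRG1 value was 0.0063 and 0.0026. With a library left out, TGFA (−0.20 to 0.058) and NRG1 (−0.055 to 0.075) in both against FK, ERBB3 with FK866 (−0.19 to 0.12) and ERBB2 with both against DMSO (−0.083 to 0.0049) crossed 0. None of these was called. Scaling to the same total moved the median of all genes with metformin from 0.012 to 0.13. Over all values of single members that kept their sign, 27 gained and 6 lost an adjusted p under 0.05. NRG1 with metformin (0.27, adjusted p = 0.0135) also lost it where its sign turned. With the trend removed its adjusted p was 0.53 without and 0.42 with the block. ERBB2 in both drugs against FK passed with the block (adjusted p = 0.0162), the same total (0.0251) and the trend removed (0.0391). Apart from these, the interaction, and NRG1 and ERBB2 as named above, the block changed no call of a member. The cause of these moves was not tested. Genes with under 10 counts, BTC among them, are limited by depth.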
